A study of Mus musculus with 4 samples.

Results

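Transient receptor potential (TRP) channels are cation channels of the cell membrane that let calcium, sodium and in some cases magnesium or zinc into cells. The 9 channel genes described here are 4 of the TRPC group (Trpc1, Trpc4, Trpc5 and Trpc6), 4 of the TRPM group (Trpm2, Trpm3, Trpm4 and Trpm7) and 1 of the TRPV group (Trpv2), among 15713 genes measured. They were chosen by gene symbol from a list drawn up with earlier results of these data known. Their difference between the groups is therefore given as a description, with no p-value, and how many of them lay past the all-gene threshold is printed for reference only. The 9 genes are also the most highly counted of the 14 TRPC, TRPM and TRPV genes in the table. The lowest count of a member in any library was 143 (Trpm4), and the highest count of the other 5 genes was 137 (Trpv4).

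The data were 4 hippocampus samples of C57BL/6 mice, an inbred laboratory strain, aged 11 to 12 weeks, from which messenger RNA libraries were sequenced. The ATO group (2 libraries) came from mice whose treatment is labelled developmental exposure to ATO at 5000 ppb. The control group (2 libraries) came from untreated mice. The labels do not spell out ATO, though the series title speaks of arsenic and of offspring. They also do not say how the agent was given, whether a library is 1 animal or a pool, or whether the replicates came from separate litters. The p-values below set the difference between groups against the spread between these libraries. They therefore cannot be carried over to animals or litters. The question posed by the design is how the hippocampal transcriptome of exposed mice differs from that of control mice. Counts summed to 17251032 and 16696546 in the ATO libraries and to 14832214 and 15078919 in the control libraries, so that 1 count was worth 0.0574 to 0.0678 normalised CPM (counts scaled to library depth).

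TRP channels are tetramers. TRPC channels open downstream of receptors that signal through Gq proteins and phospholipase C, which splits the membrane lipid PIP2 into diacylglycerol and inositol trisphosphate. TRPM channels include sensors of ADP-ribose (TRPM2), intracellular calcium (TRPM4) and neurosteroids and heat (TRPM3), and a magnesium-permeable channel fused to a kinase (TRPM7). In rodent hippocampus Trpc6 is known for its expression in granule neurons of the dentate gyrus, and Trpm3 is known for strong expression in the choroid plexus, whose epithelium makes the fluid of the ventricles.

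Trpm3 and Trpc6 were the 2 members with higher values in ATO. The 250 bases before their annotated starts are shown because these are the promoters of the members that differed most. Of the 9 members, 8 had an entry among the RefSeq promoters (GRCm38.p6; Trpm4 had none), and Trpm3 had a pair of starts. The windows were searched on both strands for 5 motifs. The E-box was searched as CANNTG and the CCAAT box by the letters of its name. The TATA box was searched as TATAAA. The cyclic AMP response element was searched as its full palindrome, TGACGTCA. For homeodomain factors of the OTX family the core TAATCC was used. Capitals mark E-boxes and CCAAT boxes. Trpc6 lies on the plus strand at chr9:8543892-8544141, the first Trpm3 window at chr19:22138796-22139045 and the second at chr19:22447958-22448207, both on the plus strand.
Trpc6: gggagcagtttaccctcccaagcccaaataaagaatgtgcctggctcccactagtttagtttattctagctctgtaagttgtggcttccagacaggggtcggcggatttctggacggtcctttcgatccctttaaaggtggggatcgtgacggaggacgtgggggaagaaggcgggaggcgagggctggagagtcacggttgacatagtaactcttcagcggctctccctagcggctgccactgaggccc
Trpm3, first start: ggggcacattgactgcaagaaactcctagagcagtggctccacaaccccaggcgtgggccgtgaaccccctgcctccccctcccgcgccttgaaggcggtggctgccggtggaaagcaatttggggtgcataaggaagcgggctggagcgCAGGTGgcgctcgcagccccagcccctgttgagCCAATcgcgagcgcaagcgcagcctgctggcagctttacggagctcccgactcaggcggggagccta
Trpm3, second start: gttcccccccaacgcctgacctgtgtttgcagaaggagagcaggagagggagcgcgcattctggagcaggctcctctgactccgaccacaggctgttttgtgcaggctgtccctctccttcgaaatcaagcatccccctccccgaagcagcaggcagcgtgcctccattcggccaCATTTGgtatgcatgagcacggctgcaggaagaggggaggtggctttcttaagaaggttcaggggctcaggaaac
The Trpc6 window held 0 matches to any of the 5 motifs. The first Trpm3 window held 1 E-box and 1 CCAAT box, and the second held 1 E-box. Of 32817 windows of the same length in the genome, 66.2% held an E-box, 33.8% a CCAAT box, 12.4% a TATA box, 6.25% the OTX core and 1.55% the cyclic AMP element. The windows were 56.4% GC for Trpc6 and 66.4% and 59.2% GC for Trpm3, against a median of 52.4%. The OTX core had 0 matches in the windows of the 8 members with an entry. A match, or its absence, describes these letters and says nothing of a factor's binding.

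Expressed per length, the 9 genes are given from high to low (deposited FPKM, reads per kilobase of gene model scaled to depth, mean of 4 libraries). Trpm7 stood at 5.88 FPKM, Trpc1 at 5.81, Trpc4 at 5.40, Trpc6 at 5.28 and Trpm3 at 4.61 (all means of FPKM). Trpv2 at 2.66 FPKM and Trpm2 at 2.61 FPKM followed, and Trpc5 at 1.94 FPKM and Trpm4 at 0.988 FPKM were lowest. Neighbours in this order from Trpm7 down to Trpm2 had overlapping ranges over the 4 libraries and are not separated. The ranges of Trpm2 (2.35 to 3.07 FPKM), Trpc5 (1.78 to 2.04) and Trpm4 (0.76 to 1.25) did not overlap with each other. In the ATO libraries alone Trpc6 had the highest mean of the members, 6.48 FPKM, whereas in the control libraries alone its mean was 4.07 FPKM, below those of Trpc1 (5.92), Trpm7 (5.90) and Trpc4 (5.71). Trpm3 averaged 5.84 FPKM in ATO and 3.37 FPKM in control.

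**Figure D1:**
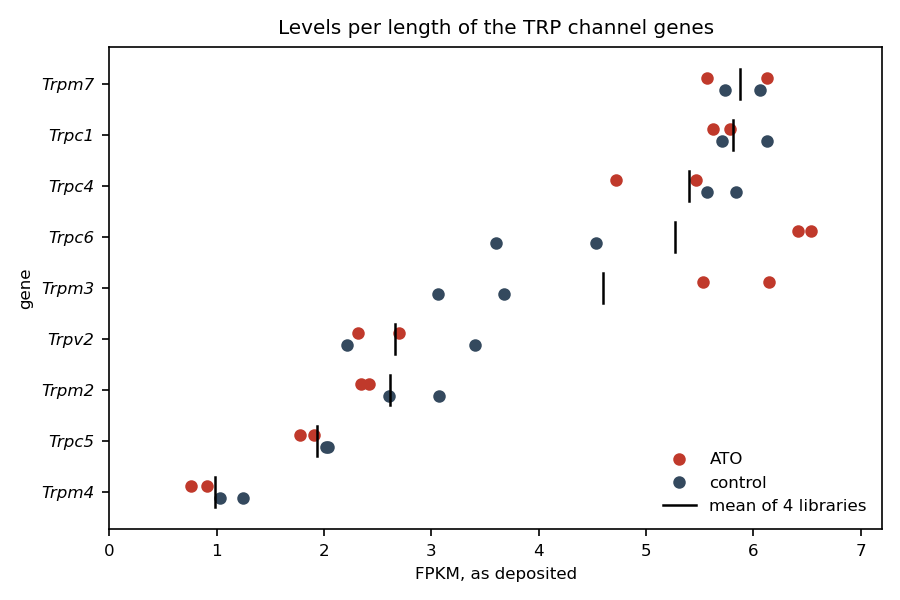
Deposited FPKM (horizontal axis) of the 9 TRP channel genes in each ATO library (red) and control library (dark), with the mean of the 4 libraries as a black bar. The genes run from Trpm7 (mean 5.88 FPKM) at the top to Trpm4 (0.988 FPKM) at the bottom, and the ATO points of Trpc6 and Trpm3 lie to the right of their control points.

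The per-length levels of the members depended on the length used. The deposited values of Trpm3 correspond to a length of 24497 bases, which is the union of the exons of 24 annotated transcripts (24437 bases). Its longest coding transcript has 12305 bases. These lengths differed for other members too. The exon union and longest coding transcript had 10826 and 4234 bases for Trpm4, and 8032 and 3473 bases for Trpc4. With the longest coding transcript as the length, 8 of the 9 members changed rank. Trpc4 came first at 12.5 on the same scale and Trpm3 stood at 9.17, between Trpm7 at 9.38 and Trpc6 at 8.22. Trpm4, at 2.53, then stood above Trpc5, at 2.34. This is the reverse of their order by deposited FPKM, where their ranges did not overlap. Differences of 1 gene between libraries do not depend on its length.

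Between the groups, 2 members were higher in ATO and the other 7 had log2 fold changes from -0.46 to -0.02, with a median over the 9 of -0.15 against 0.00 over all genes tested. Trpm3 and Trpc6 lay past the threshold of the test across all genes (edgeR's quasi-likelihood test, Benjamini-Hochberg adjusted p under 0.05), which 3.73% of all genes passed. Since the members were listed with this contrast known, nothing is read from that count. For 6 members both ATO libraries lay on 1 side of both controls (2 higher and 4 lower in ATO), which was the case for 48.1% of all genes.

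**Figure D2:**
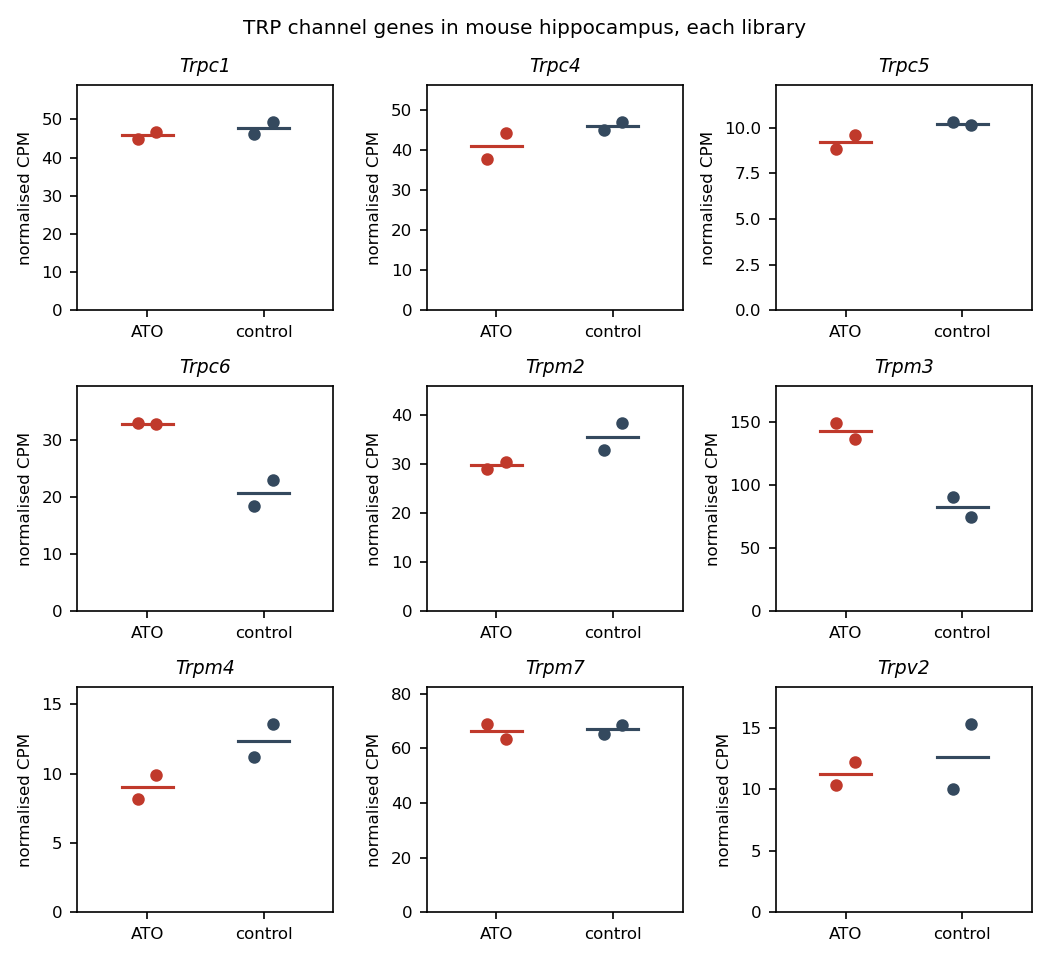
Normalised CPM (vertical axis, from 0, own scale per panel) of each TRP channel gene in the 2 ATO libraries (left, red) and the 2 control libraries (right, dark), with bars at the group means. Trpm3 at 149 and 136 CPM and Trpc6 at 32.9 and 32.7 CPM in ATO stand above their controls, and Trpc1, Trpm7 and Trpv2 overlap between the groups.

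Among the TRPC channels, Trpc6 (ENSMUSG00000031997, chromosome 9 from 8544142 to 8680741, plus strand, GRCm38) encodes a calcium-permeable channel opened by diacylglycerol. It had 573 and 544 counts in ATO and 271 and 348 in control, or 32.9 and 32.7 CPM in ATO and 18.4 and 23.0 CPM in control. Both ATO libraries were above both controls, and the controls lay further apart than the ATO libraries. Trpc6 averaged 32.8 ± 0.102 CPM in ATO and 20.7 ± 3.30 CPM in control (SD, n = 2 each), a 1.58-fold difference (log2 0.66 ± 0.12, SE). The log2 fold change was 0.83 without control replicate 2 and 0.51 without control replicate 1. Counting error alone gives the ratio of 1.58 an exact binomial 95% interval from 1.43 to 1.75. This interval leaves out the spread between replicates, where the ratio of control replicate 2 to control replicate 1 was 1.25. It is no test, since Trpc6 was listed with this contrast known.

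The other TRPC members were close to or a little below control. Trpc1, whose product joins TRPC4 and TRPC5 in mixed channels, had 44.9 and 46.8 CPM in ATO and 46.3 and 49.3 CPM in control. These groups overlapped, and the log2 fold change was -0.06 ± 0.09 (SE). Trpc4, a channel opened through Gq-coupled receptors, had 37.7 and 44.2 CPM in ATO and 45.1 and 47.0 CPM in control. Both ATO libraries were lower, at a log2 fold change of -0.17 ± 0.10 (SE), which was -0.29 without ATO replicate 2 and -0.06 without ATO replicate 1. Trpc5, the closest relative of Trpc4, had 8.84 and 9.63 CPM in ATO and 10.3 and 10.1 CPM in control, at a log2 fold change of -0.15 ± 0.17 (SE). Both ATO libraries were below both controls, though with 152 to 160 counts per library the counting interval of the ratio, 0.769 to 1.06, includes 1. So do the counting intervals of Trpc1 (0.892 to 1.03) and Trpv2 (0.767 to 1.02). Those of Trpc4 (0.823 to 0.957), Trpm2 (0.766 to 0.912) and Trpm4 (0.623 to 0.849) do not. Like that of Trpc6, these intervals leave out the spread between replicates and are no test.

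The shares of the TRPC members restate the values above. Shares of a sum are tied together, so a higher value of Trpc6 lowers the shares of the others. Of the FPKM summed over the 4 TRPC members, Trpc6 took 35.03% and 32.8% in ATO and 21.3% and 24.5% in control. Trpc4 took 25.3% and 27.9% in ATO and 32.9% and 31.5% in control. The summed FPKM was 18.7 and 19.6 in ATO and 16.9 and 18.5 in control. By these lengths Trpc6 had the largest of the 4 shares in both ATO libraries, and in both controls its share was below those of Trpc1 and Trpc4. With the longest coding transcript as length, chosen after seeing the data, Trpc4 had the largest share in all 4 libraries (32.9% and 36.0% in ATO, 41.6% and 40.0% in control). Trpc6 then took 30.7% and 28.4% in ATO and 18.0% and 20.9% in control.

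Among the TRPM channels, Trpm3 (ENSMUSG00000052387, chromosome 19 from 22139046 to 22995410, plus strand) spans 856365 bases and contains the microRNA gene Mir204 within its bounds. Mir204 itself is not analysed here. Trpm3 had 2597 and 2262 counts in ATO and 1337 and 1131 in control, the highest counts of the 9 members. This was 149 and 136 CPM in ATO and 90.7 and 74.9 CPM in control, so that the lowest ATO library was well above the highest control. Trpm3 averaged 143 ± 9.13 CPM in ATO and 82.8 ± 11.2 CPM in control (SD, n = 2 each), a 1.72-fold difference (log2 0.79 ± 0.09, SE). The log2 fold change lay between 0.65 and 0.93 when each library was left out in turn. Exons of Trpm3 overlap 2 opposite-strand genes, C330002G04Rik and Gm27151. Neither has a row of its own among the genes measured. The sources used here do not say if counting was stranded or how reads shared by genes were treated. Whether reads from these genes were counted for Trpm3 is therefore not known. Exons of Trpm2 overlap Gm22394 and Gm22871 on the same strand, which also have no row.

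Trpm2 encodes a calcium-permeable channel opened by ADP-ribose, which forms under oxidative stress. It had 29.0 and 30.4 CPM in ATO and 32.8 and 38.3 CPM in control. The ATO libraries were both lower and close together, and the log2 fold change was -0.26 ± 0.11 (SE). It was -0.14 without control replicate 2 and -0.36 without control replicate 1. Trpm4 encodes a channel for monovalent cations that calcium opens from inside the cell. It had 143 and 164 counts in ATO and 165 and 205 in control, or 8.21 and 9.87 CPM in ATO and 11.2 and 13.6 CPM in control. Both ATO libraries were below both controls in CPM, with a log2 fold change of -0.46 ± 0.17 (SE). It was -0.31 without control replicate 2 and -0.33 without ATO replicate 1, and -0.58 without control replicate 1 and -0.59 without ATO replicate 2. Trpm7, whose product carries magnesium, calcium and zinc, had 68.9 and 63.5 CPM in ATO and 65.5 and 68.7 CPM in control. The groups overlapped with a log2 fold change of -0.02 ± 0.08 (SE), which was 0.04 without ATO replicate 2 and 0.01 without control replicate 2, and the counting interval of the ratio of 0.988 ran from 0.930 to 1.05.

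In the TRPM group Trpm3 took 40.0% and 38.3% of the summed FPKM in ATO and 28.2% and 22.8% in control. Trpm2 took 15.3% and 16.8% in ATO and 20.0% and 22.8% in control. Trpm7 had 39.8% and 38.6% in ATO and 44.0% and 45.1% in control, though its own log2 fold change was -0.02. These shares are tied as well, so a higher value of Trpm3 lowers those of the others. Trpm4 took 4.94% and 6.31% in ATO and 7.89% and 9.30% in control. The summed FPKM of the 4 TRPM members was 15.4 and 14.4 in ATO and 13.1 and 13.4 in control. With the longest coding transcript as length, chosen after seeing the data, Trpm3 took 43.7% and 41.7% in ATO and 31.1% and 25.1% in control. Trpm7 then took 34.9% and 33.7% in ATO and 38.8% and 39.9% in control.

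Trpv2, a channel opened by noxious heat and by stretch, is the only TRPV gene on the list. It had 180 and 203 counts in ATO and 148 and 231 in control, or 10.3 and 12.2 CPM in ATO and 10.04 and 15.3 CPM in control. The controls enclosed both ATO libraries. The log2 fold change of -0.17 ± 0.19 (SE) became 0.16 without control replicate 2 and -0.44 without control replicate 1, so that its direction rested on 1 control library. The ratio of control replicate 2 to control replicate 1 was 1.52, with an exact binomial 95% interval from 1.23 to 1.89. Of the 9 members this was the widest gap between replicates of a group.

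**Figure D3:**
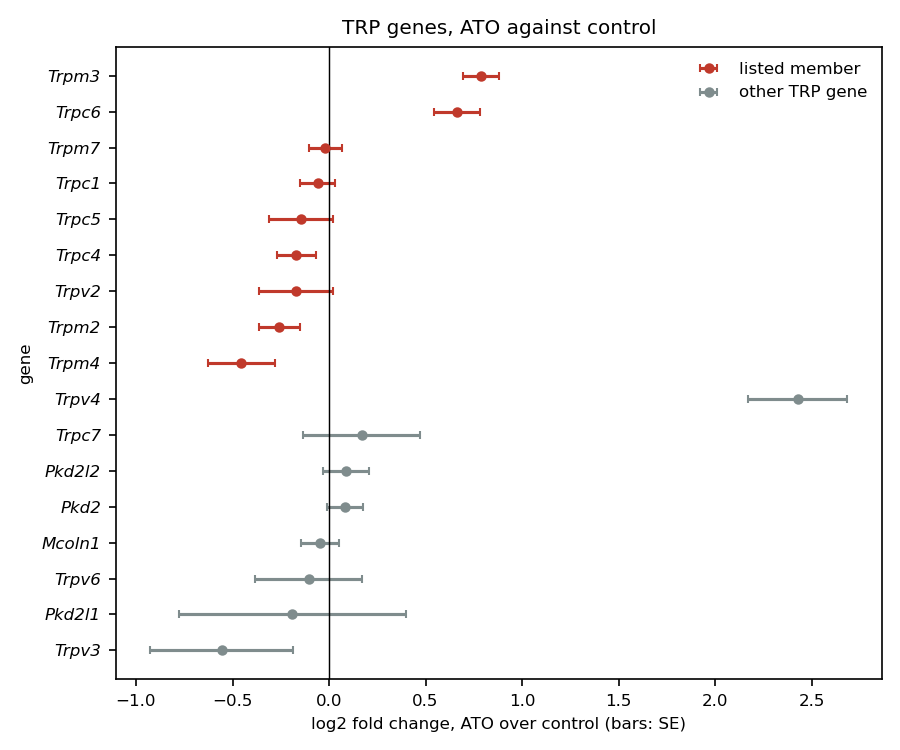
Log2 fold change of ATO over control (horizontal axis, bars are SE from edgeR) of the 9 listed TRP channel genes (red, upper) and of 8 other TRP genes in the table (grey, lower). Trpm3 (0.79) and Trpc6 (0.66) stand apart from the other 7 members, which lie from -0.46 to -0.02, and Trpv4 (2.43) stands above all other genes shown.

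Of 18 other genes of the TRP superfamily that were listed, 8 were in the table, and 1 rose and 0 fell. Trpv4 (ENSMUSG00000014158, chromosome 5 from 114622152 to 114658421, minus strand), which encodes a calcium channel sensitive to osmotic swelling, had 137 and 128 counts in ATO and 22 and 21 in control. This was 7.86 and 7.71 CPM in ATO and 1.49 and 1.39 CPM in control, so both groups were tight and far apart. Trpv4 rose 5.38-fold (log2 2.43 ± 0.26, SE, edgeR adjusted p = 5.52e-05), and it passed in all 11 alternative fits. The authors' deposited table also marked Trpv4 as differentially expressed, at a log2 fold change of 2.34, and marked none of the 9 members. Its log2 fold changes were 0.79 for Trpm3 and 0.67 for Trpc6, near those of the fit used here. The rule behind the authors' mark is not known here, so the marks and the edgeR threshold are not compared.

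The remaining 7 did not pass and gave small or imprecise differences. The log2 fold changes of Pkd2 and Pkd2l2, which encode polycystin-type channels, were 0.08 ± 0.09 and 0.09 ± 0.12 (SE). Mcoln1, which encodes a lysosomal calcium channel, was at -0.05 ± 0.10 (SE). Trpc7, which shares the diacylglycerol response of TRPC6, was at 0.17 ± 0.30 (SE). Trpv6, a calcium uptake channel of epithelia, was at -0.11 ± 0.28, Trpv3 of skin at -0.56 ± 0.37 and Pkd2l1 at -0.19 ± 0.59 (SE), with 6 to 19 counts per library for Pkd2l1. The direction of Pkd2, Trpc7, Mcoln1, Trpv6 and Pkd2l1 turned when single libraries were left out.

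The genes that act beside TRP channels were read from the same fit across all genes, in 7 lists. In that fit 2.87% of all genes rose and 0.859% fell. Of 22 tested genes of Gq-coupled receptors and phospholipase C, 1 rose and 0 fell, and the median log2 fold change was 0.01 against 0.00 over all genes tested. The gene that rose was Htr2c, the serotonin 2C receptor, which the choroid plexus also expresses strongly in rodents. Htr2c had 54.4 and 53.0 CPM in ATO and 34.0 and 32.8 CPM in control (log2 0.68 ± 0.09, SE, edgeR adjusted p = 0.000514). The muscarinic receptor gene Chrm3 (-0.27 ± 0.11), the phospholipase gene Plcb1 (-0.15 ± 0.08) and the histamine receptor gene Hrh1 (-0.51 ± 0.28, SE) did not pass.

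Of 27 genes of diacylglycerol and PIP2 turnover, 1 rose and 0 fell, with a median log2 fold change of -0.05. Pip5k1b, a kinase that makes PIP2, had 58.3 and 58.8 CPM in ATO and 46.9 and 42.9 CPM in control (log2 0.38 ± 0.09, SE, edgeR adjusted p = 0.0282). Its call was lost in DESeq2's Wald test and without control replicate 2, ATO replicate 1 or ATO replicate 2, with adjusted p from 0.00491 to 0.153 over the 11 alternatives. The phosphoinositide phosphatase gene Inpp5f was at -0.26 ± 0.07, the diacylglycerol kinase gene Dgke at -0.21 ± 0.08 and the lipid kinase gene Pi4ka at -0.22 ± 0.08 (log2, SE), and these did not pass.

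Of 26 genes of store-operated calcium entry and partners of TRPC channels, 1 rose and 2 fell, with a median log2 fold change of 0.01. Homer1, a scaffold protein of synapses that binds TRPC1 and group I glutamate receptors, had 166 and 197 CPM in ATO and 113 and 126 CPM in control. It rose by log2 0.60 ± 0.09 (SE, edgeR adjusted p = 0.00147) and passed in all 11 alternative fits. The genes that fell encode ryanodine receptors, which release calcium from the endoplasmic reticulum. Ryr3 had 84.9 and 80.2 CPM in ATO and 104 and 138 CPM in control (log2 -0.55 ± 0.11, SE, edgeR adjusted p = 0.0121). Ryr1 had 37.8 and 35.9 CPM in ATO and 46.5 and 51.6 CPM in control (log2 -0.41 ± 0.10, SE, edgeR adjusted p = 0.0290). Without control replicate 2 neither of these passed, at an adjusted p of 0.0918 for Ryr3 (log2 -0.34; range over the 11 alternatives 0.000173 to 0.0918) and 0.164 for Ryr1 (range 0.00519 to 0.164). Ryr1 also missed it in DESeq2's Wald test and when ATO replicate 2 was left out. The other family member, Ryr2, did not pass, at -0.32 ± 0.09 (SE).

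Of 22 genes of calmodulin, calcineurin and NFAT, which carry calcium signals to the nucleus, 0 passed in edgeR, and 3 had an unadjusted p under 0.05. The median log2 fold change was -0.09, with Camk2d at -0.32 ± 0.11, Akap5 at -0.20 ± 0.08, Ppp3cc at -0.27 ± 0.13 and Nfatc1 at 0.43 ± 0.21 (SE). An unadjusted p under 0.05 was also found for 8 of 26 genes of store-operated calcium entry and 6 of 27 of diacylglycerol and PIP2 turnover. The share of all genes with such a p is not given here, so nothing is read from these counts, here or below. Of 13 genes of ADP-ribose metabolism, which makes and removes the ligand of TRPM2, 0 passed in edgeR and 1 had an unadjusted p under 0.05, with a median of 0.03. The ADP-ribosyltransferase gene Parp3 was at 0.61 ± 0.26, the ADP-ribose hydrolase gene Nudt9 at -0.18 ± 0.09, the glycohydrolase gene Parg at 0.16 ± 0.10 and Oard1 at -0.24 ± 0.15 (log2, SE). Of 4 genes of sulfonylurea receptors, which can pair with TRPM4, and their potassium channels, 0 passed and 0 had an unadjusted p under 0.05, and Abcc8 was at 0.06 ± 0.09, Abcc9 at -0.03 ± 0.20, Kcnj11 at 0.13 ± 0.10 and Kcnj8 at -0.25 ± 0.31 (log2, SE).

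Of 23 genes of magnesium and zinc transport, listed beside Trpm7, 1 rose and 0 fell, with a median of 0.01 (log2). Magt1, a subunit of the oligosaccharyltransferase complex that is also described as a magnesium transporter, had 21.5 and 24.2 CPM in ATO and 14.7 and 13.4 CPM in control. It rose by log2 0.70 ± 0.13 (SE, edgeR adjusted p = 0.00740). It missed the threshold without control replicate 2, at an adjusted p of 0.0710, and passed in the other 10 alternatives (lowest 0.000798). The zinc transporter gene Slc39a14 (0.27 ± 0.09) and the magnesium transporter relatives Cnnm4 (0.38 ± 0.15) and Cnnm2 (0.26 ± 0.10, SE) did not pass.

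**Figure D4:**
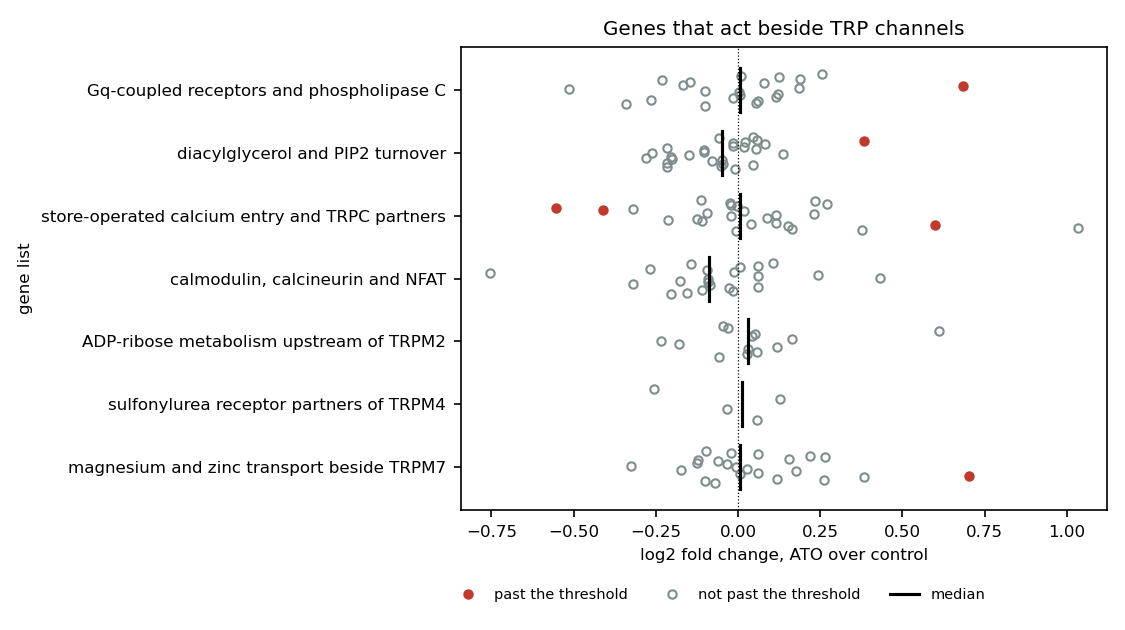
Log2 fold change of ATO over control (horizontal axis) of the genes of 7 pathway lists, 1 circle per gene, filled red where past the all-gene threshold of edgeR and open grey where not, with the list median as a black bar. The medians lie between -0.09 and 0.03, and Htr2c, Pip5k1b, Homer1, Ryr3, Ryr1 and Magt1 are the 6 filled circles.

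Markers of dentate granule, CA1, CA3 and CA2 neurons, the neurons of the labelled tissue, were in the table. Since every gene in it exceeds 1 CPM in 2 or more libraries, their presence alone does not check the label, and their summed levels are given below. Markers of cell types differed between the same libraries. In bulk tissue, more cells of a type and more RNA per cell cannot be told apart. The 20 markers of choroid plexus epithelium all rose, with a median log2 fold change of 4.096, and their summed level was 3429 and 4273 CPM in ATO and 198 and 264 CPM in control. Among them Kl, the klotho gene, rose by log2 2.33, Enpp2 by 3.02 and Tmem72 by 6.13. Wfdc2 had 44 and 50 counts in ATO and 0 in both controls, the only marker of the list at 0 in a library. Wfdc2 could be in the table only through the ATO libraries, so its direction was fixed in advance. This list was also drawn up with earlier results of these data known. Trpm3, Trpv4 and Htr2c were higher in the same ATO libraries, and the part of choroid plexus RNA in their values was not tested. Of 14 ependymal and ciliated cell markers 7 rose and 0 fell, with a summed level of 73.1 and 52.7 CPM in ATO and 28.8 and 32.8 CPM in control. Dynlrb2 rose by log2 2.56, Ak7 by 1.77 and Rsph1 by 1.09. The count of 7 was 2 without control replicate 2, 2 without ATO replicate 1 and 3 without control replicate 1, and it was 10 without ATO replicate 2.

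Of 13 markers of dentate granule neurons, with Trpc6 itself left out, 1 rose and 0 fell, 9 had a positive log2 fold change (median log2 0.28) and 7 had an unadjusted p under 0.05. The count of 1 was 5 without ATO replicate 2 and 0 without ATO replicate 1. It was 4 when control replicate 1 was left out and 0 when control replicate 2 was. The summed level was 948 and 859 CPM in ATO and 840 and 719 CPM in control. The gene that rose was Npnt, a matrix protein gene (log2 0.43 ± 0.11, SE, edgeR adjusted p = 0.0460), whose call was lost in 4 of the 11 alternatives (adjusted p from 0.00532 to 0.261). Il16 at 0.41 ± 0.12 and Dsp at 0.30 ± 0.09 (log2, SE) did not pass. The log2 fold change of Trpc6 was 0.66, and those of these 13 markers ran from -0.25 to 0.43. Trpc6 was listed with this contrast known, so nothing is read from setting it beside them. The part of granule neuron RNA in the value of Trpc6 was not tested.

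Of 11 markers of CA1 pyramidal neurons, 5 fell and 0 rose, and 9 had an unadjusted p under 0.05. Their median log2 fold change was -0.42, and their summed level was 680 and 941 CPM in ATO and 1037 and 1060 CPM in control. Those that fell included Dcn at -0.56, Pex5l at -0.37 and Wfs1 at -0.42. Dcn is also on the leptomeningeal list, where it is the 1 gene that fell. The CA1 count was 8 without ATO replicate 2 and 1 without ATO replicate 1 (where 1 marker was higher). It was 1 when control replicate 1 was left out and 0 when control replicate 2 was. Microglia and macrophages also express Trpm2 and Trpv2. Of 15 markers of these cells 0 passed the threshold in edgeR, 2 had an unadjusted p under 0.05 and 11 had a positive log2 fold change. Their summed level was 421 and 471 CPM in ATO and 446 and 417 CPM in control, so the groups overlapped. Mrc1 at 0.95, Tmem119 at 0.26 and C1qc at 0.17 (log2) did not pass. The part of microglial RNA in the values of Trpm2 and Trpv2 was not tested. The endothelial markers, of which 1 of 12 fell and 5 had an unadjusted p under 0.05, summed to 333 and 330 CPM in ATO and to 401 and 320 CPM in control. Pericyte and smooth muscle markers, of which 0 of 11 passed in edgeR and 0 had an unadjusted p under 0.05, summed to 279 and 272 CPM in ATO and to 305 and 240 CPM in control.

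CA3 and CA2 markers gave 0 higher and 1 lower of 12 (summed level 1077 and 1076 CPM in ATO, 1136 and 1205 CPM in control). Interneuron markers gave 0 higher and 1 lower of 12 (median log2 -0.21), with 11 negative log2 fold changes and 7 unadjusted p under 0.05. Astrocyte markers gave 1 higher and 0 lower of 12, with 7 unadjusted p under 0.05. Oligodendrocyte markers gave 0 higher and 1 lower of 12. Oligodendrocyte precursor markers gave 1 higher and 1 lower of 8. The number of calls in each of these lists, and in the endothelial list, changed when single libraries were left out. In DESeq2's Wald test the count of lower genes was 0 for interneurons, oligodendrocyte precursors and endothelial cells. Leptomeningeal fibroblast markers gave 1 higher and 1 lower (Dcn) of 13. Of these, 12 had a positive log2 fold change and 9 an unadjusted p under 0.05, with a median log2 fold change of 0.69 and a summed level of 182 and 128 CPM in ATO and 148 and 115 CPM in control. The leptomeningeal count of 1 higher was 9 without ATO replicate 2, 4 without control replicate 1 and 0 without control replicate 2.

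**Figure D5:**
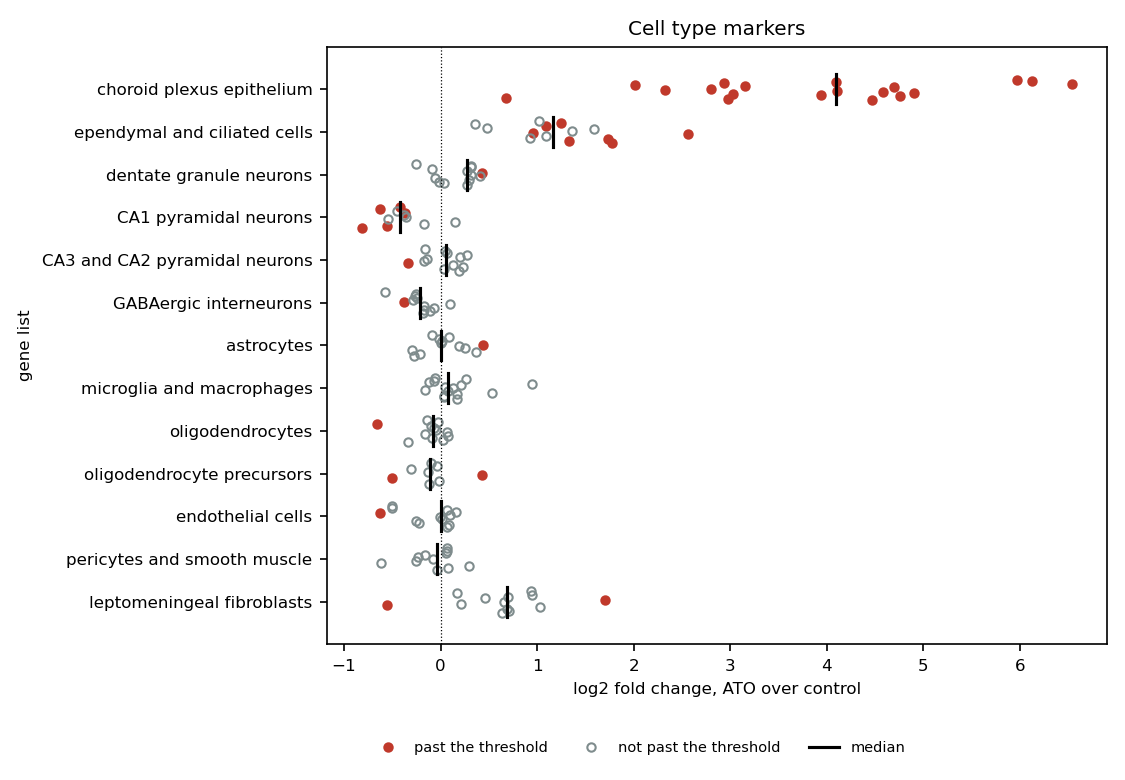
Log2 fold change of ATO over control (horizontal axis) of the markers of 13 cell types, 1 circle per gene, filled red where past the all-gene threshold of edgeR and open grey where not, with the list median as a black bar. The choroid plexus median is 4.096, the ependymal median 1.17 and the CA1 median -0.42, Trpc6 is left out of the dentate list, and Wfdc2, with 0 control counts, is counted in its median and not drawn.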

How the data were processed

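Messenger RNA of 4 mouse hippocampus libraries was measured by RNA sequencing. The authors deposited 1 table. Per the file headers it holds, by gene, read counts and FPKM of every library, and the authors' log2 fold change, p-value and adjusted p-value. Build GRCm38 is named, with alignment by HISAT2 (2.0.1), trimming by cutadapt (1.9.1) and counting by HTSeq (0.6.1), per the submitters' processing notes, which state no settings. Every gene in the table (15713) exceeds 1 CPM in 2 or more libraries, so lower genes are not analysed here. The lengths behind the deposited FPKM of the members matched the exon union of GENCODE vM21 to within 0.273%.

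ATO was compared with control by edgeR's quasi-likelihood test (edgeR 4.0.16, R 4.3.3) on the counts, with filterByExpr, which removed 0 genes, TMM and Benjamini-Hochberg adjustment over all genes. Each SE was obtained by dividing the absolute log2 fold change by the square root of F. CPM use TMM library sizes. Intervals of ratios are exact binomial 95% intervals on summed counts and cover counting error only. Total counts per library are given in the report.

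The members and the 21 gene lists (323 genes, 308 tested) were chosen with earlier results of these data known. The naming rule took all members, all other listed TRP genes in the table, up to 4 genes of smallest p per other pathway list, and up to 3 per marker list described. Further choices were made after values were seen. The 5 marker lists with named genes were picked then, apart from Wfdc2, named for its counts of 0. Nov and Adprs were matched to Ccn3 and Adprhl2 through RefSeq synonyms after a first look, which moved the CA1 count from 4 of 10 lower to 5 of 11. Ptp4a1 had 2 identifiers, and 1 was used. Promoter windows were shortened to 250 bases, and the E-box and CCAAT box were put in capitals after the OTX core gave 0 matches. Matches to all 5 motifs are given.

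Alternatives were RLE factors, library size only, no filter, at least 5 CPM in 2 libraries, DESeq2 1.42.0, limma-voom (limma 3.58.1), the replicate number as a block, and each library left out. The tests were tried on counts simulated from the model fitted to these same libraries. Such counts hold no litter or pool variation beyond that model, so nothing is read from the trial. Protein sequences were not analysed here, and 1 gene of the TRP list is not reported here.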

Additional observations from a re-analysis of the deposited data

How the results depend on the processing

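With 2 libraries per group, replicate spread limits every value here. The members were listed with this contrast known, so that 2 of them lay past the all-gene threshold in each of the 11 alternative fits is a description and no support. Over all genes 586 passed (451 higher, 135 lower). DESeq2's Wald test gave 316 (252 higher, 64 lower), the replicate block 1366 (890 higher, 476 lower), and leaving out 1 library 222 to 611 (180 to 443 higher, 42 to 168 lower), lowest without control replicate 2. Without ATO replicate 1, 300 were higher. The cause was not tested. The labels do not say that a shared replicate number pairs libraries, and the replicate differences of the groups correlated at 0.0877 across 15713 genes. Under the replicate block the count of members past the threshold was 2, that of dentate markers higher was 7, that of leptomeningeal markers higher was 8 and that of CA1 markers lower was 8. For pathway lists the block gave 3 genes lower in diacylglycerol and PIP2 turnover. It gave 3 higher and 3 lower in store-operated calcium entry, and 1 lower in calmodulin, calcineurin and NFAT.

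Of the 9 members, 5 changed rank by FPKM in the ATO libraries alone, 4 in the control libraries alone, 0 with the exon union length, and 8 with the longest coding transcript as length, a setting chosen after seeing the data.

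Leaving out 1 library turned the direction of members Trpm7 and Trpv2, and of genes that did not pass. Their log2 fold changes ranged from -0.0503 to 0.20 for Pkd2, -0.16 to 0.43 for Trpc7, -0.17 to 0.0804 for Mcoln1, -0.48 to 0.20 for Trpv6, -1.19 to 0.61 for Pkd2l1 and -0.20 to 0.11 for Abcc9.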
